A study of Mus musculus with 2 samples.

Results

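The ionotropic glutamate receptors of the AMPA and NMDA type were described in cortical tissue of wild-type (WT) and P4H-TM knockout (P4H-TM KO) mice, at the level of the mRNA of each subunit. The subunit genes were chosen by name, and every probe set annotated to exactly 1 symbol was taken where that symbol was Gria1 to Gria4, Grin1, Grin2a to Grin2d or Grin3a. Of these 10 genes, 9 had such a probe set among 18193 genes in all, with 10 probe sets for 4 AMPA subunit genes and 11 for 5 of the 6 NMDA subunit genes. Grin1, which encodes the obligatory GluN1 subunit, had none in the annotation used and was not analysed here. All animals were naive males on the C57BL/6J strain, killed at 2.5 months, and P4H-TM KO mice were compared with their WT littermates. RNA of 4 mice was pooled per genotype and hybridized to 1 Affymetrix Mouse Genome 430 2.0 array each. With 1 array per genotype there is no replicate check, no p-value and no SD or SE between animals, and every difference below describes this pair of arrays. Values are log2 expression, and a difference is the value in P4H-TM KO minus that in WT.

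AMPA and NMDA receptors are cation channels opened by glutamate at excitatory synapses, and each is built from 4 subunits. AMPA receptors carry the fast synaptic current, and the GluA2 subunit, in its edited form, makes them almost impermeable to calcium. NMDA receptors need a co-agonist, glycine or D-serine, open only when the membrane is depolarized, and admit calcium. Their GluN1 subunits assemble with GluN2 subunits, which set the kinetics of the channel, or with GluN3 subunits, which lower its calcium permeability. The arrays addressed what P4H-TM does in the brain, and these receptors are a main route of calcium entry into cortical neurons.

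None of the 9 AMPA and NMDA subunit genes with a probe set differed by 1.5-fold between the genotypes. Of the 21 probe sets, 9 had higher values in P4H-TM KO, 10 had lower values and 2 were equal, and the largest difference was 0.30, on a Gria4 probe set of low signal. A difference of 1.5-fold, 0.585 on the log2 scale, was reached by 0 of 21 probe sets and by 0.635% of all 34945 probe sets with 1 symbol. With so small a share, 0 of 21 does not set the subunits apart from other genes. At 1.2-fold, 2 of the 21 were reached, both higher in P4H-TM KO, as compared with 9.84% of all probe sets in either direction, 4.66% higher and 5.18% lower. The median size of the difference, without its sign, was 0.05 over the 21 probe sets and 0.09 over all. Of the 21 probe sets, 15 had a mean signal of at least 6.385, the overall median. In those 15 the median size was 0.05, with 0.07 for all probe sets above that signal, and in the 6 below it the median size was 0.055, with 0.13 for all probe sets of such low signal. This single cut does not match signal, since differences become smaller still among brighter probe sets, where many of the subunits lie. These medians therefore do not show that the subunits differed less than other genes of their signal. Shares among probe sets of similar signal are given for some of the genes below.

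**Figure D1:**
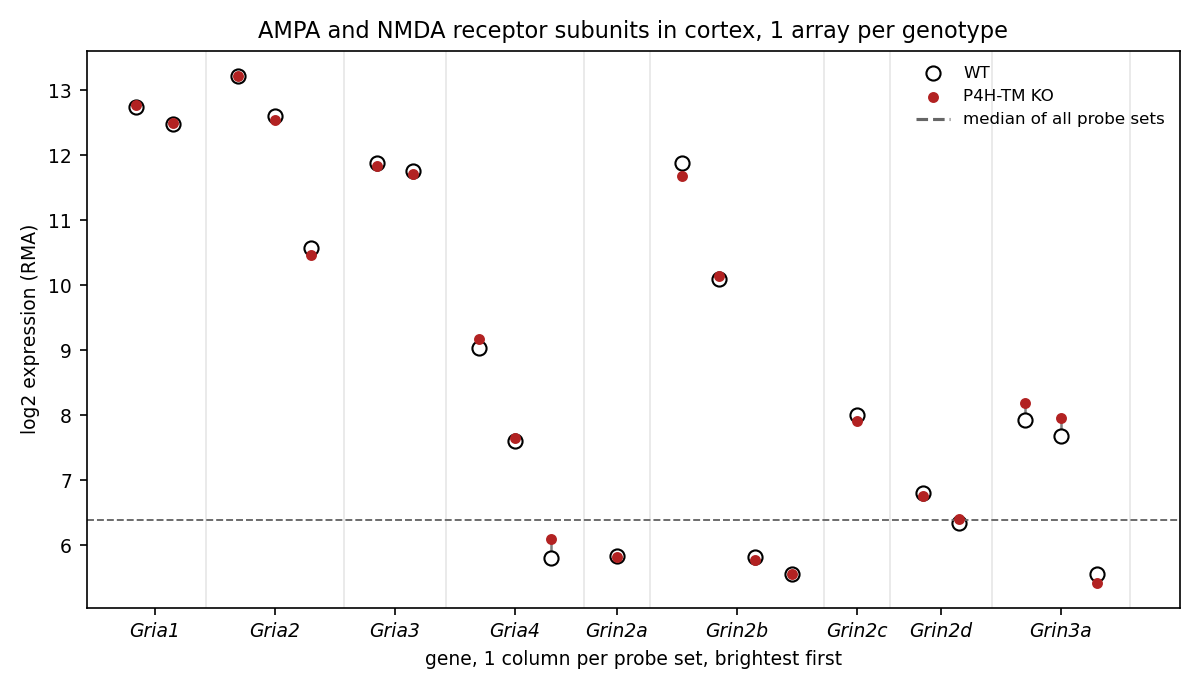
Log2 expression of every AMPA and NMDA receptor subunit probe set on the WT array (open circles) and the P4H-TM KO array (red points), where a vertical line joins each pair and the dashed horizontal line is the overall median signal, 6.385. Most pairs of points overlap, and the visible gaps are those of Gria4 at low signal, Grin2b for the brightest probe set and Grin3a; no error bar could be drawn from 1 array a genotype.

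P4htm, the targeted gene, checked the labels. Its brighter probe set had 11.05 on the WT array and 9.10 on the P4H-TM KO array, 3.86-fold less, and the other had 9.71 and 8.07, 3.12-fold less. The P4htm values were thus separated by far more than those of any subunit. Where a gene had several probe sets, their differences scattered with a pooled SD of 0.147 (9010 genes), or 0.101 (5101 genes) among those above the median signal. That SD describes how well probe sets of 1 transcript match and not the spread between animals, and 17 of the 21 subunit probe sets had a difference smaller than 0.147. The number of arrays limits the precision.

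Among the AMPA subunits, values in the arrays were nearly equal for Gria1, Gria2 and Gria3, and slightly higher in P4H-TM KO for Gria4. Gria1, which encodes GluA1, the subunit most studied for activity-driven insertion into synapses, had 12.75 in WT against 12.78 in P4H-TM KO for the brightest probe set and 12.49 and 12.50 on the other. Both probe sets of Gria1 gave differences of 0.03 or less. Gria2, which encodes the calcium-limiting GluA2, had 13.22 on both arrays for the brightest probe set. The other Gria2 probe sets had 12.60 in WT against 12.55 in P4H-TM KO, and 10.57 and 10.47, so that no Gria2 probe set was higher in P4H-TM KO. Gria3, an X-linked gene for GluA3, had 11.89 in WT against 11.83 in P4H-TM KO on one probe set and 11.76 and 11.72 on the other. Its differences of −0.06 and −0.04 lay within 0.02 of each other.

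Gria4 encodes GluA4, a subunit with fast kinetics that is prominent in parvalbumin interneurons. It had 9.04 in WT against 9.18 in P4H-TM KO for the brightest probe set, 7.61 and 7.66 on the next and 5.80 and 6.10 on the dimmest, which lay below the median signal. All 3 probe sets of Gria4 had higher values in P4H-TM KO, with a mean difference of 0.163 ± 0.127 (SD over 3 probe sets, which are not replicates). Of 3973 probe sets within 0.5 log2 units of the signal of the brightest, 18.4% differed by at least as much. The share was 71.8% of 4342 for the next probe set, with a difference of 0.05, and 11.3% of 4822 for the dimmest. Gria4 lies on chromosome 9, as P4htm does, with 997 protein-coding genes between them in the RefSeq order of that chromosome.

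The median difference of the 4 AMPA genes on their brightest probe sets was 0.015, and it was −0.015 once each gene's probe sets were averaged and −0.01 when those that can match several transcripts were dropped, so that it has no settled sign. Over all 18193 genes the median was 0.00. Because GluA2 sets the calcium permeability of AMPA receptors, Gria2 was also set against the other AMPA subunits. The difference of Gria2 minus the mean difference of Gria1, Gria3 and Gria4 was −0.037 on the brightest probe sets and −0.094 with probe sets averaged, with no replicate against which either could be read.

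P4H-TM is a prolyl 4-hydroxylase that can act on the hypoxia-inducible factor HIF1, which binds DNA at the hypoxia response element, and the promoters of Gria2 and Gria4 are printed here because both genes were measured and each promoter holds a match to the core of that element. The promoter table, from RefSeq (GRCm38.p6), covers 250 bases before to 50 after the gene start and held 5 of the 10 subunit genes, namely Gria2, Gria4, Grin1, Grin2c and Grin2d. The core was searched as ACGTG and as GCGTG on both strands, and matches are in capitals. The promoters, 5′ to 3′ on the minus strand, lie at chr3:80802786-80803085 for Gria2 and at chr9:4796185-4796484 for Gria4.
Gria2: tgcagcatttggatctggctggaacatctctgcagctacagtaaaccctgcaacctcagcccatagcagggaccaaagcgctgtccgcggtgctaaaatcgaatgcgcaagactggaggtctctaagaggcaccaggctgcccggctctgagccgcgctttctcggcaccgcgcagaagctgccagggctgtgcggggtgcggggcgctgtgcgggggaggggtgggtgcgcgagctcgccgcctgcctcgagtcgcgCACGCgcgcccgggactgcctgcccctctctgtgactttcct
Gria4: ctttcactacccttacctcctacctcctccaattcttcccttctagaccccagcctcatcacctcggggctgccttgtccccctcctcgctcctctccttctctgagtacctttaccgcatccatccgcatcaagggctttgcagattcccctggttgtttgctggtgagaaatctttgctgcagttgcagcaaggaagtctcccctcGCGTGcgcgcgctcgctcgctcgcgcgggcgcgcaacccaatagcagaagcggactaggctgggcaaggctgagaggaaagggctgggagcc
Each of these promoters holds 1 match to GCGTG and 0 to ACGTG. The Grin2c and Grin2d promoters hold neither, and the Grin1 promoter holds both, so 3 of the 5 had a match to either spelling. Of all 32851 promoters of 300 bases in the table, 43.8% had a match to either, 19.6% to ACGTG and 32.4% to GCGTG. Both spellings contain CG, and the 5 subunit promoters were 56.0% to 70.0% G and C, against a median of 52.7% over all promoters. The shares over all promoters were not matched for this. A match is a description of the letters and not a binding site. On their brightest probe sets, Gria2 and Gria4, with a match, differed by 0.00 and 0.14. Grin2c and Grin2d, without a match, differed by −0.09 and −0.05 on theirs. The mean over all probe sets was −0.05 for Gria2, 0.163 for Gria4, −0.09 for Grin2c and 0.00 for Grin2d. A link between a match and these values was not tested.

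Among the NMDA subunits, Grin2a to Grin2d had slightly lower values in P4H-TM KO on their brightest probe sets, and Grin3a had higher values. Grin2a encodes GluN2A, the subunit that rises in cortical synapses after birth. Its single probe set had 5.84 in WT against 5.83 in P4H-TM KO, below the median signal, so the arrays say little about this transcript. The Grin2a difference of −0.01 turned to 0.011 when the trend with signal was removed.

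Grin2b encodes GluN2B, the slower subunit that predominates early in life and persists in the adult forebrain. On its brightest probe set Grin2b had 11.89 in WT against 11.69 in P4H-TM KO, a 1.15-fold lower value in the latter. Of 1150 probe sets of similar signal, 2.61% differed by at least 0.20. The next Grin2b probe set, also of high signal, had 10.10 in WT against 10.15 in P4H-TM KO, in the opposite direction. The remaining probe sets, below the median signal, had 5.83 and 5.77, and 5.56 on both arrays. The lower value of Grin2b was therefore seen on 1 of its 2 bright probe sets, and the mean over 4 was −0.053 ± 0.108 (SD between probe sets). The balance of GluN2B and GluN2A, which exchange during development, could not be read, since the Grin2a probe set lay below the median signal.

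Grin2c encodes GluN2C, best known from cerebellar granule cells and also made by astrocytes in the forebrain. Its single probe set had 8.01 in WT against 7.92 in P4H-TM KO, and 48.6% of 4367 probe sets of similar signal differed by at least 0.09. Grin2d encodes GluN2D, a subunit of slow decay found in interneurons, with 6.81 in WT against 6.76 in P4H-TM KO on one probe set and 6.35 and 6.40 on the other. The Grin2d values thus differed by −0.05 and 0.05, with a mean of 0.

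Grin3a encodes GluN3A, a glycine-binding subunit that lowers the calcium flux of NMDA receptors and is most abundant in the first weeks after birth. It had 7.93 in WT against 8.19 in P4H-TM KO for the brightest probe set and 7.69 and 7.96 on the next. These differences, 0.26 and 0.27 on the log2 scale, matched within 0.01 and lie just below and just above the 1.2-fold threshold. Of about as bright probe sets, 6.11% of 4336 and 6.44% of 4366 differed by at least as much. The third Grin3a probe set, below the median signal, had 5.56 in WT against 5.43 in P4H-TM KO, with a difference of −0.13. The mean over all 3 was 0.133 ± 0.228 (SD between probe sets), the widest spread of any subunit gene. Grin3b, the gene of the related GluN3B, was not among the chosen subunits and had 6.75 in WT against 6.47 in P4H-TM KO on 1 probe set, in the opposite direction.

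**Figure D2:**
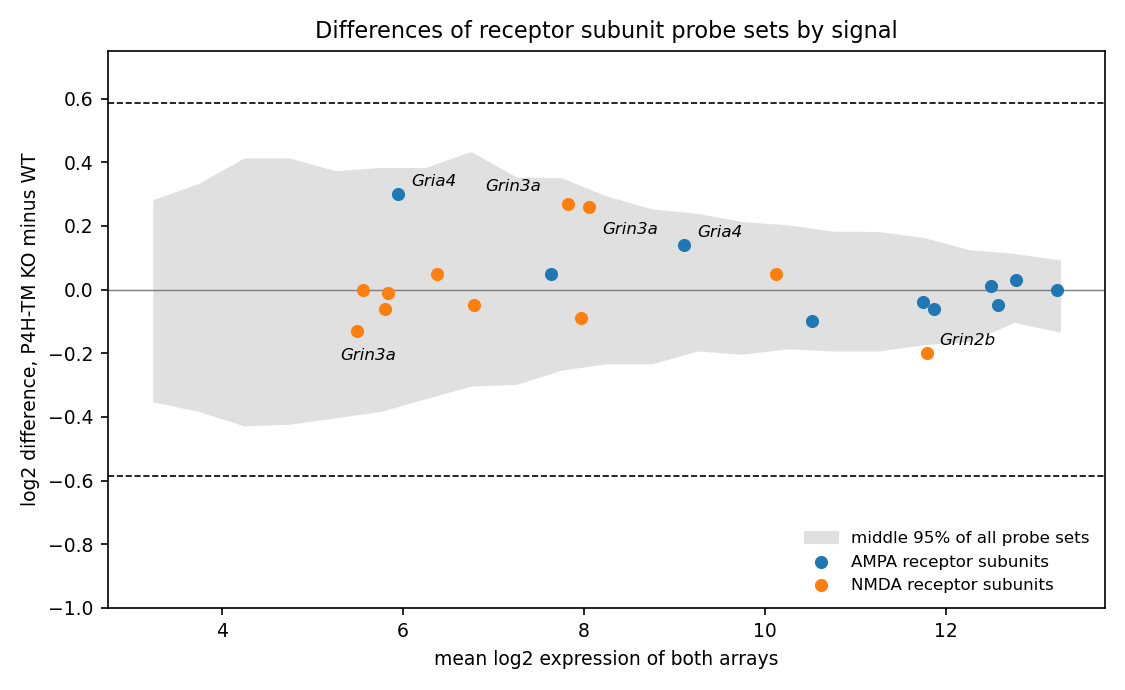
Log2 difference of P4H-TM KO minus WT against the mean signal of both arrays for the AMPA (blue) and NMDA (orange) receptor subunit probe sets; the grey band holds the middle 95% of all probe sets with 1 symbol in steps of 0.5 log2 units that hold enough probe sets, and the dashed lines mark 1.5-fold. In the plot 20 of 21 points lie in the band, and the point outside is the brightest Grin2b probe set, with −0.20.

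The probe sets of a gene gave the same direction more evenly for the AMPA than for the NMDA subunits, which is a description of 7 genes with several probe sets. In 4 of them, all encoding AMPA subunits, no pair of probe sets had opposite signs. In the other 3, Grin2b, Grin2d and Grin3a, some probe sets were higher and others lower in P4H-TM KO. For Grin2d and Grin3a the opposite sign came from a probe set below the median signal, with means of 6.375 and 5.495. For Grin2b it came from a bright one. All AMPA probe sets but the dimmest of Gria4 were above the median signal, so receptor type and signal cannot be told apart here. The median difference of the 5 NMDA genes was −0.05, and it ran from −0.07 to −0.01 under the other settings. Over all 9 genes, 3 were higher, 5 lower and 1 equal on the brightest probe set, with a median of −0.01 that turned to 0.01 with the trend with signal removed. None of the 9 reached 1.5-fold, as 0.759% of all genes did, and none reached 1.2-fold for the brightest probe set, as 9.03% of all genes did. Over only 9 genes, neither count sets the subunits apart from other genes.

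The genes that build, anchor and regulate these receptors showed differences of a similar size. Of 104 genes in 7 lists, 94 were measured, of which 46 had higher values in P4H-TM KO, 43 lower values and 5 equal values. No gene of these lists reached 1.5-fold, as 0.759% of all genes did. At 1.2-fold, 2 were reached in the higher direction and 2 in the lower, as compared with 9.03% of all genes in either direction. The list medians ran from −0.045 to 0.045.

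AMPA receptor auxiliary and assembly proteins guide the receptors to the synapse and shape their gating, and 10 of 22 were higher and 10 lower, with a median of 0.00. Cacng5, for the TARP γ-5, had the lowest difference of all 94 genes, with 8.55 in WT against 8.09 in P4H-TM KO, and −0.32 on its other probe set. Both Cacng5 probe sets were thus lower in P4H-TM KO by more than any subunit probe set was. Cacng3, for the TARP γ-3, had the highest difference of this list, 0.17, at a signal below the median. Kainate and delta receptor genes are the closest relatives of the subunits, and their list also holds the genes of the partner proteins Neto1 and Neto2. Of its 8 members, 7 were higher, with a median of 0.045 that became −0.005 with probe sets averaged. In that list Grik3, a kainate receptor subunit, had 0.10, with −0.12 on its other probe set, and Neto1, a kainate receptor partner, had −0.11.

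Postsynaptic scaffold and anchoring proteins hold the receptors in the postsynaptic density, and 10 of 22 were higher and 10 lower, with a median of 0.00. Dlgap3, a scaffold protein that links PSD-95 to the Shank proteins, had 0.15 and Homer3, an adaptor of metabotropic receptors, −0.29, each on a single probe set. Kinases and phosphatases of receptor regulation were lower for 10 of 15 members, with a median of −0.03. Camk2d, a calcium/calmodulin-dependent kinase subunit, had 6.97 in WT against 7.33 in P4H-TM KO, but its other 6 probe sets ranged from −0.42 to 0.29. Camk2b, a neuronal subunit of the same kinase, had −0.13 on its single probe set, and Fyn, a tyrosine kinase of the Src family, had −0.13 too, with 0.03 on its other probe set, so that both were lowest in that list.

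Genes of the NMDA co-agonists, which make, move and break down D-serine and glycine, were lower for 5 of 8 members, with a median of −0.045. Slc7a10, a transporter of D-serine and glycine, had 8.37 in WT against 8.58 in P4H-TM KO, and Dao, which degrades D-serine, had −0.11 at a very low signal. Glutamate transport and metabolism had 7 of 11 members higher, with a median of 0.03. Slc38a3, a glutamine transporter, had 0.29 and, on its other probe set, 0.35, and Glul, glutamine synthetase, had −0.07. Subunit RNA editing and splicing had 5 of 8 members higher, with a median of 0.01 that became −0.011 with probe sets averaged. Adar, an RNA-editing deaminase, was higher on all 3 probe sets, by 0.14 to 0.24, and Adarb2, a relative expressed in brain, had −0.22, with 0.15 on another probe set.

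**Figure D3:**
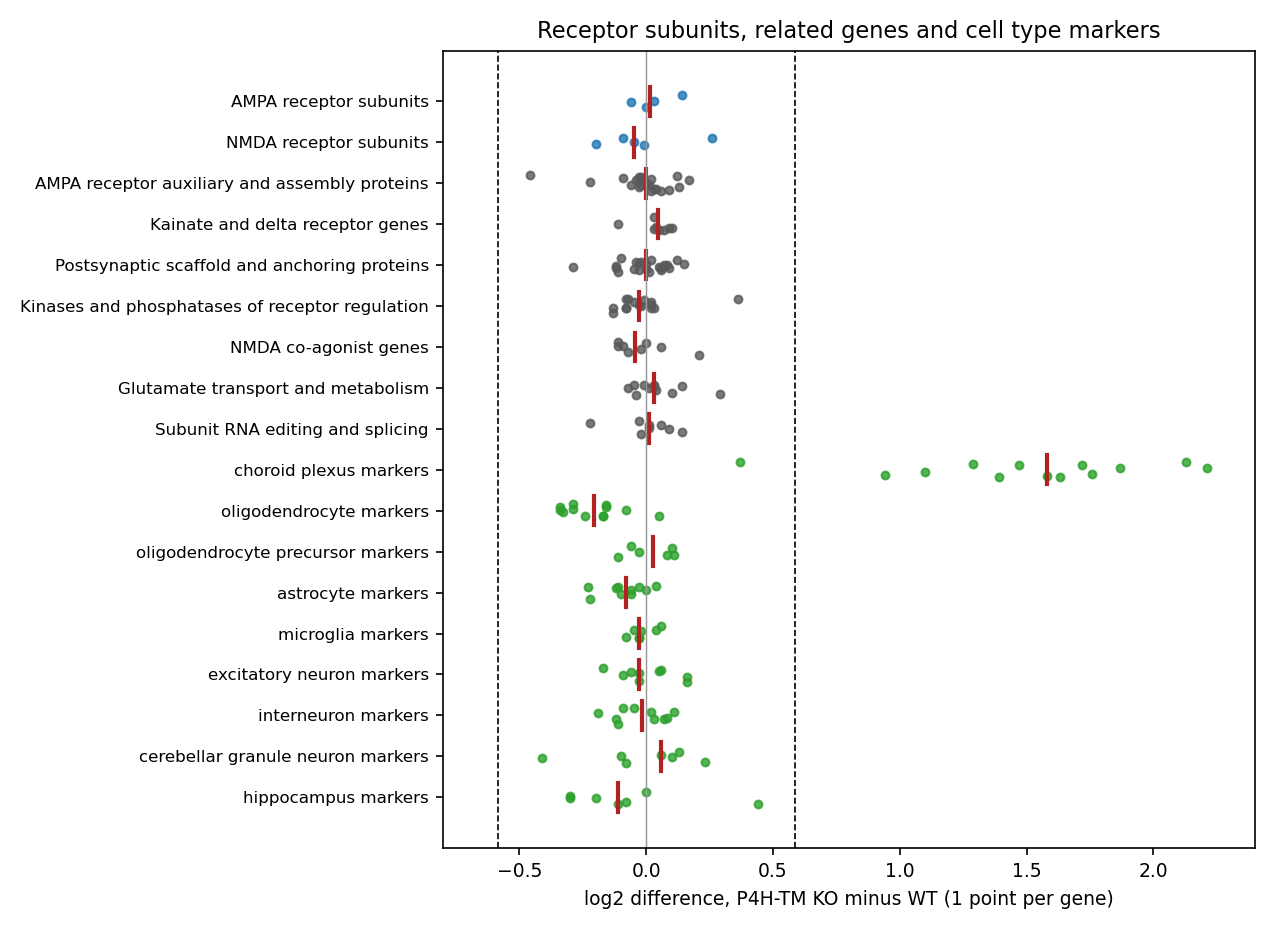
Log2 difference of P4H-TM KO minus WT with 1 point per measured gene for the brightest probe set, for the receptor subunits (blue), the lists of related genes (grey) and the cell type marker lists (green); red bars are list medians and dashed lines mark 1.5-fold. All points of the subunits and related genes lie inside the dashed lines, and the choroid plexus markers lie to the right with a median of 1.58.

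The 2 pools of tissue differed in markers of other cell types, and the part of these in the subunit values was not tested. In bulk tissue, fewer cells of a type and less RNA per cell cannot be told apart. Choroid plexus markers were higher in P4H-TM KO for all 13 measured genes, 12 of them by at least 1.5-fold, with a summed linear signal of 25350 in WT against 37140 in P4H-TM KO. Their brightest members, Ttr and Kcnj13, differed by 0.37 and 2.21, and the list median was 1.58. Ttr, with 14.49 in WT against 14.86 in P4H-TM KO, made up most of both sums and had the smallest difference of the list. Oligodendrocyte markers were lower for 11 of 12 genes, with a median of −0.205, sums of 75640 in WT against 67460 in P4H-TM KO, and Mbp and Cnp at −0.08 and −0.17. Excitatory neuron markers were higher for 4 and lower for 5 of 9 genes, with a median of −0.03, sums of 16720 in WT against 16210 in P4H-TM KO, and Nrgn and Neurod6 at −0.03 and −0.17. Interneuron markers were higher for 5 and lower for 5 of 10 genes, with a median of −0.015, sums of 14710 and 14810, and Gad1 and Sst at 0.02 and 0.11. The list ran from −0.19 for Pvalb, the parvalbumin gene, to 0.11 for Sst, and Pvalb was named after its value was seen.
All 9 measured excitatory neuron markers had a signal above the median of the arrays, and so did 10 of 10 astrocyte markers. Astrocyte markers were higher for 1, equal for 1 and lower for 8 genes, with a median of −0.08. Their brightest members, Aldoc and Gja1, had 0.04 and −0.10, and Aldoc was the only higher one. Microglia markers were higher for 2 and lower for 5 of 7 genes, with a median of −0.03 and Csf1r and Cx3cr1 at −0.08 and 0.06. Oligodendrocyte precursor markers were higher for 3 and lower for 3 of 6 genes, with a median of 0.025 and Pdgfra and Gpr17 at −0.03 and 0.10. Cerebellar granule neuron markers were higher for 4 and lower for 3 of 7 genes, with a median of 0.06. Only 4 of the 7 were above the median signal. Their brightest members, Zic1 and Neurod1, had −0.41 and 0.10, so that Zic1 went against the list median. Hippocampus markers were higher for 1, equal for 1 and lower for 5 of 7 genes, with a median of −0.11 and Wfs1 and Dsp at −0.08 and −0.30. The higher one, Grp, named after its value was seen, had 0.44, the difference of that list farthest from 0.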

How the data were processed

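RNA of 4 mice per genotype was hybridized to 1 array each. The authors took scan intensities from the GeneChip Operating System, followed by normalization in GenePattern. RMA (background correction, between-array normalization, probe set summary) is named in the submitters' processing notes, with its version not given in the sources used here. The deposited values are log2 values with 2 decimals, so small differences are coarse. Arrays give no counts, and their number sets the precision.

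From 45101 probe sets, 34945 with 1 symbol in the platform annotation were kept, without 64 controls, 932 with several symbols and 9160 unnamed here. A gene was represented by its probe set with the highest mean signal. The calculation was checked on simulated data with shifts of 2-fold, larger than any subunit difference. That check does not bear on differences as small as those of the subunits. No test was made, since a genotype has 1 array. The members and lists were chosen with earlier results of these data known. Named genes were the subunits, P4htm, the highest and lowest gene of each list of related genes and the 2 brightest of each marker list. Grin3b, Grp and Pvalb were added, and the promoter motifs were chosen, after values had been seen. Alternatives were averaged probe sets, centred arrays, removal of a loess trend (span 0.3), a signal filter, other thresholds and removal of probe sets ending in _s_at, _x_at or _a_at. Calculations ran in Python 3.11.15 with pandas 2.3.3 and numpy 2.4.6, the trend in statsmodels 0.14.6 and plots in matplotlib 3.10.9.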

Additional observations from a re-analysis of the deposited data

How the results depend on the processing

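At 1.5-fold 0 subunit probe sets were higher and 0 lower. A 2-fold threshold, the signal filter and removal of probe sets that can match several transcripts cannot add to a count of 0, and centring and removal of the trend with signal moved values too little to do so, so that these alternatives say nothing about its stability. At 1.2-fold, 2 were higher and 0 lower. For P4htm, −1.95 became −1.795 on averaging its probe sets and −1.64 on dropping those that can match several transcripts. Of 105 alternatives, 101 moved their value by less than the spread between probe sets (for medians, scaled to the number of genes) or kept the count, among them 35 of 36 for single subunit genes, the exception being Grin2b with probe sets averaged. That spread is wide relative to the differences, so small medians changed sign as given above. The totals hold alternatives that could not move a value, such as averaging for Grin2a and Grin2c, with 1 probe set each. They also hold the counts at 1.5-fold, so the totals do not measure stability. Removing the trend shifted subunit values by at most 0.027 and centring by 0.01. The lower Grin2b value shrank from −0.20 to −0.053 and the higher Grin3a value from 0.26 to 0.133 with probe sets averaged. No array could be left out. No paired analysis was possible because each genotype has 1 array.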
